A study of Mus musculus with 5 samples.

Results

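The mitosis genes described here are 43 genes that carry a cell through division: mitotic cyclins and kinases, checkpoint, kinetochore and spindle proteins, cytokinesis factors and substrates of the anaphase promoting complex. They were picked by symbol from a list of such genes, with no threshold on a measured value, and all 43 were among the 22815 symbols of the deposited table. This list and the other gene lists below were chosen with earlier results of these data known. The table holds FPKM (fragment counts divided by transcript length and by sequencing depth) for 5 libraries of mouse peritoneal lavage cells, made by Smart-seq2, a low-input RNA sequencing method. The groups were 2 libraries from mice described as Irf8-deficient and given pristane (labelled Irf8KO), 2 libraries from wild type C57BL/6 mice (WT) given pristane, and 1 library from WT mice given phosphate-buffered saline (PBS). All mice were 8 weeks old. Irf8 encodes a transcription factor needed for monocytes and dendritic cells, and pristane is a hydrocarbon oil that causes sterile inflammation of the peritoneum. The mutant allele, the dose of pristane and the time after it were not stated in the labels or notes at hand. Nothing in the labels says that replicates were different mice, and the p-values therefore measure only how far these libraries spread, which may be technical variation.

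Mitosis starts when cyclin B activates the kinase Cdk1, and it ends when the anaphase promoting complex marks cyclin B and securin for destruction so that sister chromatids part. Most genes of this machinery are transcribed in late S phase, G2 and mitosis and are silent in resting cells. Their RNA in a mixed cell sample is therefore widely used as a sign of cycling cells. Resident macrophages of the peritoneum can renew by local division, and granulocyte precursors divide in the bone marrow, whereas mature neutrophils do not divide.

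Mitosis genes were higher in the peritoneal cells labelled Irf8KO than in WT cells after pristane, as a nearly complete group. In the libraries labelled Irf8KO 40 and 39 of the 43 genes reached 1 FPKM, against 18 and 14 in the WT pristane libraries and 20 in the PBS library. Their median level was 5.23 and 3.86 FPKM in the Irf8KO-labelled libraries, 0.797 and 0.602 FPKM in WT pristane and 0.955 FPKM in the PBS library. The mitotic cyclins Ccnb1 and Ccnb2 were among the genes with a wide gap, while Pttg1, which encodes securin, was the only gene of the 43 that stood lower in both libraries labelled Irf8KO than in both WT pristane libraries. Levels in bulk RNA do not show whether more cells carried these transcripts or each cell carried more of them.

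**Figure D1:**
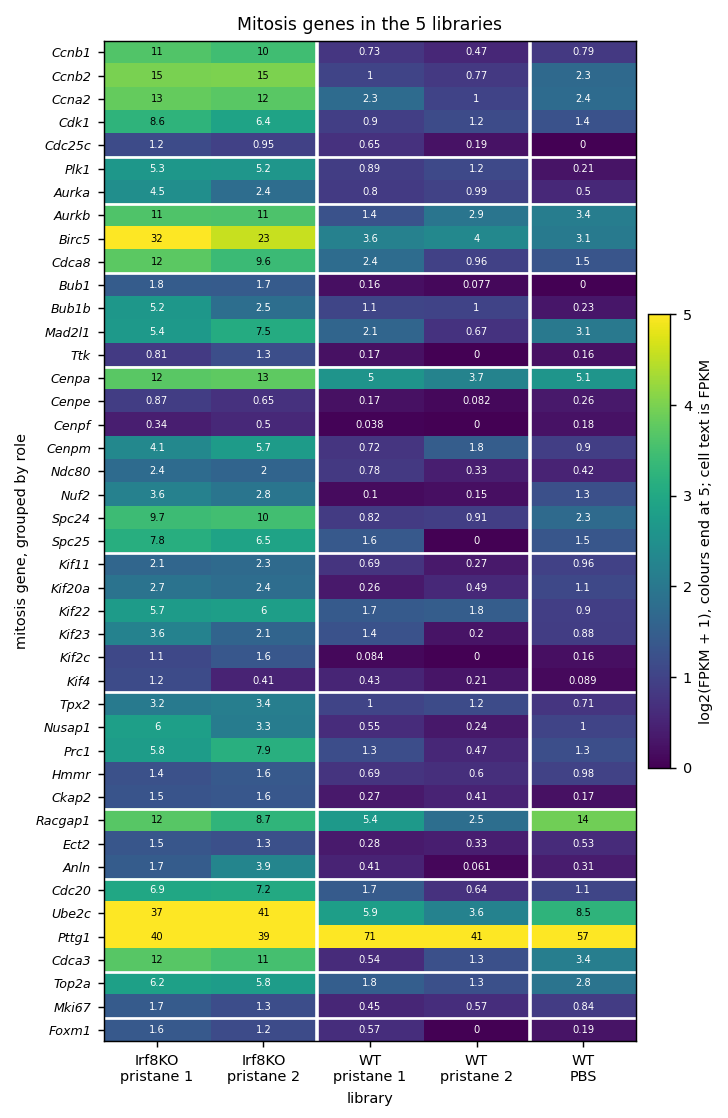
Level of each of the 43 mitosis genes (rows, grouped by role with white lines) in the 5 libraries (columns), as log2(FPKM + 1) in colour with the FPKM printed in each cell. The 2 columns labelled Irf8KO are brighter than the WT pristane and PBS columns for nearly every gene, and Pttg1 is bright in all 5.

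The libraries differed in other ways as well. Irf8, the gene named in the genotype, stood at 120.5 and 59.4 FPKM in the Irf8KO-labelled libraries, 63.3 and 48.7 FPKM in WT pristane and 32.4 FPKM in the PBS library, so its RNA was not lower in the libraries that carry the knockout label. Every direction below rests on that label. Sex-linked transcripts differed within and between groups. The Y-linked Eif2s3y was at 23.2 and 25.6 FPKM in the Irf8KO-labelled libraries with 12.9 FPKM in the first WT pristane library and a listed 0 in the second and in PBS. Xist, expressed in females, was at 0.0148 and 0.0145 FPKM in the Irf8KO-labelled libraries, 0 and 8.81 FPKM in WT pristane and 43.5 FPKM in PBS, so these transcripts varied along with the groups, and the part of sex in the comparisons was not tested. From the steps between the lowest values, the libraries held about 5086000 and 3302000 assigned fragments where labelled Irf8KO, 4083000 and 2876000 in WT pristane and 2296000 in PBS.

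A log2 change below is the difference between 2 group means of log2(FPKM + 1), which understates the change of genes near or under 1 FPKM, and tests are from limma, fitted over 11117 genes in all 5 libraries. Between the pristane groups, 0 of the 41 mitosis genes tested passed an adjusted p of 0.05 in either direction, where 0.00% of all genes tested passed as higher and 0.0270% as lower. The smallest adjusted p among them was 0.0541 (limma). At an unadjusted p under 0.05, 37 of the 41 were higher and 0 lower, against 10.5% and 10.1% of all genes. Both libraries labelled Irf8KO lay above both WT pristane libraries for 41 of the 43 genes, against 22.0% of the 15245 genes above 0 anywhere, and below both for 1, against 22.7%. Over all 43 genes the median log2 change was 1.34, beside 0.00 over all genes.

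The number of genes past the adjusted threshold changed with the libraries and genes in the fit. With the 4 pristane libraries alone, 18 of the 41 genes passed as higher, where 1.98% of 10431 genes did, and the smallest adjusted p (limma) was 0.00432 for Ccnb2. When only genes with a mean of at least 5 FPKM were kept, 7 of the 10 mitosis genes left passed, where 1.78% of 5894 genes did. That mean is taken over all 5 libraries, and 6 of the 7 (Ccnb2, Ccna2, Aurkb, Birc5, Cdca8 and Cdca3) stayed under 5 FPKM in every WT library and were kept only through their Irf8KO-labelled values, so this count is no support for a difference. The filter at 1 FPKM bears on the other counts in the same way, because 15 of the 41 tested genes reached 1 FPKM in no library but those labelled Irf8KO. Of the other 26 tested genes, 24 were higher at an unadjusted p under 0.05. In the fit on the 4 pristane libraries alone, only 22 of the 41 genes reached 1 FPKM in a WT pristane library. Ccnb1, Spc24, Nuf2 and Nusap1 did not, and they were among the 18 called there, so that count has the same limit. The ratio of mean FPKM, libraries labelled Irf8KO over WT pristane, was at least 2 for 42 of the 43 genes, at least 5 for 23 and at least 10 for 11, with a median of 5.29.

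**Figure D2:**
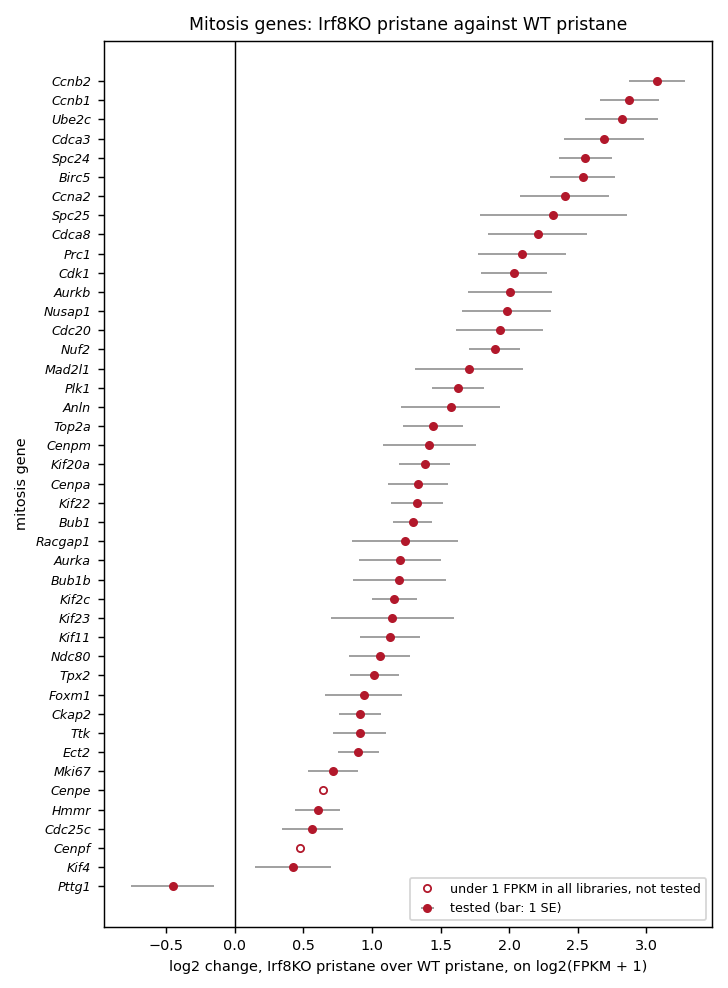
Log2 change of each mitosis gene on log2(FPKM + 1), libraries labelled Irf8KO over WT pristane (n = 2 each), from limma over all 5 libraries. Bars are 1 SE and open points are the 2 genes under 1 FPKM in every library, which were not tested. Changes run from −0.45 for Pttg1 to 3.08 for Ccnb2, and Pttg1 is the only gene left of 0.

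Promoters of mitosis genes are known for the CHR, a short element bound by the MuvB complex, and for CCAAT boxes bound by NF-Y. RefSeq promoter sequences (GRCm38.p6, from 250 bases before to 50 bases after the annotated start) were matched by symbol for 36 of the 43 genes, all but Spc24, Ccna2, Kif20a, Tpx2, Cdc25c, Aurkb and Foxm1. The CHR forms TTTGAA and TTTAAA, the CCAAT box CCAAT and the E2F-like motif GGCGC were searched on both strands. TTTAAA reads the same on both, GGCGCC holds GGCGC on both, and neighbouring motifs may share bases. A gene with 2 promoters, of which there were 2, counted when either held the motif. TTTGAA was found in 27 of the 36 genes (75.0%), against 17.9% of 32851 promoters, and TTTAAA in 9 (25.0%), against 13.2%. CCAAT was found in 28 genes (77.8%), against 37.4% of all promoters, and in 2 or more copies in 20 genes (55.6%), against 11.7%. GGCGC was in 23 (63.9%), against 36.9%. Either CHR form together with a CCAAT box was in 26 genes (72.2%), against 10.7%, and a CHR form starting between 60 bases before and 30 bases after the annotated start was in 25 (69.4%), against 8.27%. These shares describe the letters of the promoters and carry no test.

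The promoter stretches below, 150 bases before to 50 after the annotated start, belong to the 5 genes with the largest log2 change that had a promoter sequence, and to Pttg1 and Racgap1, which differed from the rest in the comparisons. Capitals mark a CHR form or a CCAAT box on either strand, so that TTCAAA and ATTGG are TTTGAA and CCAAT read on the other strand.
Ccnb2, chr9:70421505-70421704, minus strand: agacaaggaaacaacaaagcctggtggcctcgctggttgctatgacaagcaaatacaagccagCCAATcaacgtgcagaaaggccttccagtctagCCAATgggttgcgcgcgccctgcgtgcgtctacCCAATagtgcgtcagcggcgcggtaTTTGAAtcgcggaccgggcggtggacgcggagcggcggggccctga
Ccnb1, chr13:100786437-100786636, minus strand: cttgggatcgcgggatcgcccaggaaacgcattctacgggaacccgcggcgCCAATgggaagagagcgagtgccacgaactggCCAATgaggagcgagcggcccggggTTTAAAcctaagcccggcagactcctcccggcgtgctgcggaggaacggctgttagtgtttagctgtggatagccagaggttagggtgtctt
Ube2c, chr2:164769779-164769978, plus strand: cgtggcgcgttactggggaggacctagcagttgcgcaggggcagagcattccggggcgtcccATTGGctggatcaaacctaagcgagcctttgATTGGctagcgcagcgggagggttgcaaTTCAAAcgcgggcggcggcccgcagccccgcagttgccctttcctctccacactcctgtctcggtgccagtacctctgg
Cdca3, chr6:124830026-124830225, plus strand: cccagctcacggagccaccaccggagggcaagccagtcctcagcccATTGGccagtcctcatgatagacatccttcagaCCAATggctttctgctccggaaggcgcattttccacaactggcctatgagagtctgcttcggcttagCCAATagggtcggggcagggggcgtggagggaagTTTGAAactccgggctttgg
Birc5, chr11:117849087-117849286, plus strand: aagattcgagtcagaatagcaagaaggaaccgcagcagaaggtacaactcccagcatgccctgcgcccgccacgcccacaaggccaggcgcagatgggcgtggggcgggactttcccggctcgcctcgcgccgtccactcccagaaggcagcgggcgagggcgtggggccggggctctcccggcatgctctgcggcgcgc
Pttg1, chr11:43425932-43426131, minus strand: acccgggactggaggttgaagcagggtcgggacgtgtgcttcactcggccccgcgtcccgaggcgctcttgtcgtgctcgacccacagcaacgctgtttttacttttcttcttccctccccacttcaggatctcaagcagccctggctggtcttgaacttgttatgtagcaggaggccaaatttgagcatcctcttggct
Racgap1, chr15:99651607-99651806, minus strand: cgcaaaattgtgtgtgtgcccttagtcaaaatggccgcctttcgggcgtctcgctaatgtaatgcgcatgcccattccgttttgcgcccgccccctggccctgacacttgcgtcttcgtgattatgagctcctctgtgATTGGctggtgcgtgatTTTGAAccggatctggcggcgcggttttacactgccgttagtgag
In Ccnb2 a CHR starts at base 5 and the CCAAT boxes at −87, −54 and −21, counted from 1 at the annotated start. Another TTTGAA of Ccnb2 lies outside the printed stretch, at −167. In Ccnb1 a CHR of the other form starts at −42, behind CCAAT boxes at −99 and −67. The stretches of Birc5 and Pttg1 hold neither motif, although Birc5 has a TTTAAA further out at −220. Birc5 was among the genes with the largest log2 change and Pttg1 had the lowest. Racgap1 has a CHR at base 6 and a CCAAT box at −12.

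**Figure D3:**
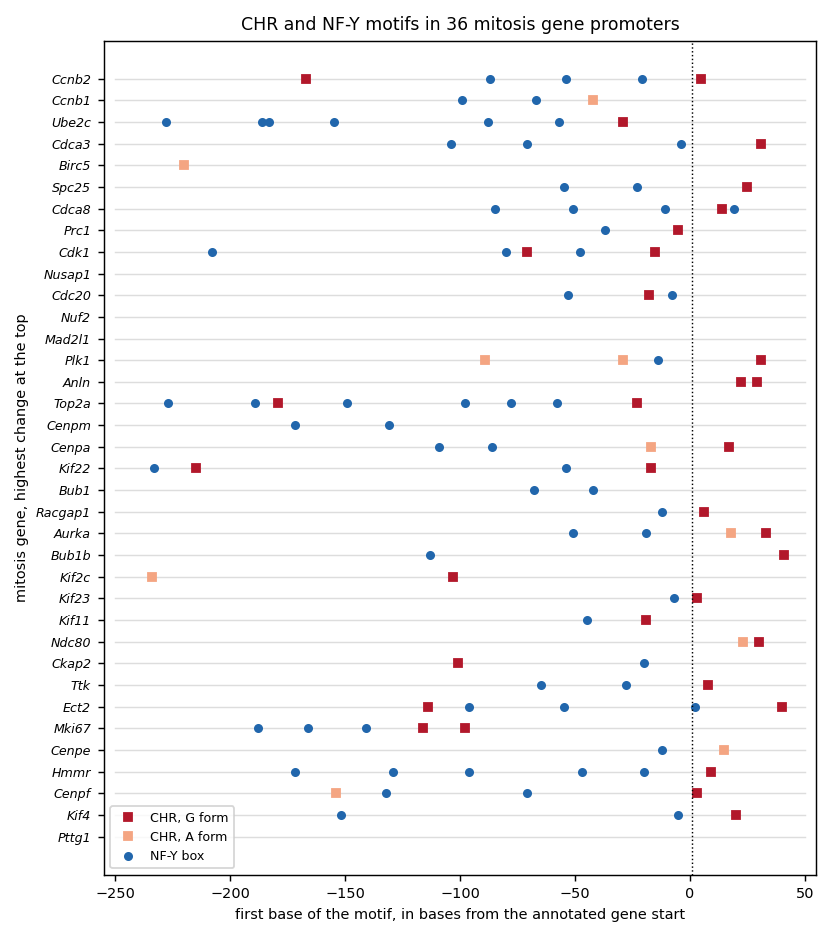
Position of CHR and NF-Y motifs (CCAAT box) in the promoters of the 36 mitosis genes with a RefSeq sequence, as the first base of the motif relative to the annotated start (dotted line), with genes ordered by log2 change between the pristane groups. Squares are CHR forms (G form TTTGAA, A form TTTAAA) and circles CCAAT boxes on either strand. A CHR lies within 60 bases before to 30 after the start in 25 of 36 genes, counting Ect2 by its promoter that is not drawn. Pttg1 in the bottom row has neither motif, and neither do Mad2l1, Nuf2 and Nusap1.

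On the log2(FPKM + 1) scale the B-type cyclins, which activate Cdk1, had the largest changes of the 43 between the pristane groups, although the ratio of mean FPKM was larger for the scarcer Kif2c, Nuf2 and Cenpf, at 31.8, 25.7 and 21.9. Ccnb2, a B-type cyclin, stood at 14.9 and 15.1 FPKM in the Irf8KO-labelled libraries, against 1.03 and 0.768 FPKM in WT pristane and 2.26 FPKM in the PBS library. Ccnb1, the principal B-type cyclin of mitotic entry, stood at 11.5 and 10.001 FPKM in the Irf8KO-labelled libraries, 0.733 and 0.467 FPKM in WT pristane and 0.787 FPKM in PBS. Both cyclins thus lay closer within each pristane pair than between pairs, which differed by 16.7-fold and 17.9-fold in mean FPKM. The WT pristane values rest on an estimated 6 and 3 fragments for Ccnb2 and 7 and 3 for Ccnb1, so these folds are imprecise. The log2 changes of Ccnb2 and Ccnb1 were 3.08 ± 0.20 and 2.88 ± 0.22 (SE), each with limma's adjusted p at 0.0541. Ccna2, the cyclin of S phase and G2, had 13.2 and 12.2 FPKM in the Irf8KO-labelled libraries, 2.34 and 0.996 FPKM in WT pristane and 2.36 FPKM in PBS. Its exons overlap Exosc9 on the other strand, and Smart-seq2 does not mark strand.

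Cdk1, the kinase these cyclins switch on, had 8.58 and 6.44 FPKM in the Irf8KO-labelled libraries, against 0.903 and 1.22 FPKM in WT pristane and 1.39 FPKM in PBS. The change was 2.04 ± 0.24 (SE) on the log2 scale with an adjusted p of 0.0716 (limma), and with the 4 pristane libraries alone the adjusted p was 0.0158. Cdc25c, the phosphatase that removes inhibitory phosphates from Cdk1, was far scarcer, at 1.21 and 0.948 FPKM in the Irf8KO-labelled libraries and 0.646 and 0.192 FPKM in WT pristane, and was listed at 0 in PBS. It was 1 of 4 tested genes whose unadjusted p did not reach 0.05 between the pristane groups; the others were Kif23, Kif4 and Pttg1.

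Among the other mitotic kinases, Plk1, which drives centrosome maturation and mitotic entry, had 5.28 and 5.17 FPKM in the Irf8KO-labelled libraries, 0.888 and 1.16 FPKM in WT pristane and 0.209 FPKM in PBS. The PBS value of Plk1 lay below all 4 pristane values, and its exons overlap the predicted gene Gm44985 on the other strand. Aurka, the kinase of spindle poles, had 4.51 and 2.44 FPKM in the Irf8KO-labelled libraries, 0.797 and 0.987 FPKM in WT pristane and 0.499 FPKM in PBS.

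The chromosomal passenger complex, which corrects faulty attachments of chromosomes to the spindle, was higher in all 3 of its subunits listed here. Birc5, its survivin subunit, had 31.6 and 22.9 FPKM in the Irf8KO-labelled libraries, 3.59 and 4.04 FPKM in WT pristane and 3.11 FPKM in PBS. Aurkb, its kinase, had 11.4 and 11.1 FPKM in the Irf8KO-labelled libraries, 1.41 and 2.85 FPKM in WT pristane and 3.36 FPKM in PBS. Cdca8, the borealin subunit, had 12.4 and 9.61 FPKM in the Irf8KO-labelled libraries, 2.41 and 0.956 FPKM in WT pristane and 1.51 FPKM in PBS. No pristane values overlapped between genotypes for any subunit, and the log2 changes were 2.54 ± 0.24 for Birc5, 2.01 ± 0.31 for Aurkb and 2.21 ± 0.36 (SE) for Cdca8.

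Genes of the spindle assembly checkpoint, which holds anaphase until all chromosomes are attached, ran at lower levels. Mad2l1, the inhibitor of Cdc20, had 5.45 and 7.48 FPKM in the Irf8KO-labelled libraries, 2.09 and 0.666 FPKM in WT pristane and 3.08 FPKM in PBS. Bub1b, which acts with it, had 5.23 and 2.52 FPKM in the Irf8KO-labelled libraries, 1.06 and 1.02 FPKM in WT pristane and 0.234 FPKM in PBS. The kinase Bub1 had 1.76 and 1.72 FPKM in the Irf8KO-labelled libraries and 0.155 and 0.0770 FPKM in WT pristane, and was listed at 0 in PBS. Ttk, the kinase that starts checkpoint signalling, had 0.811 and 1.29 FPKM in the Irf8KO-labelled libraries, 0.173 FPKM in WT pristane replicate 1 and 0.164 FPKM in PBS, with a listed 0 in WT pristane replicate 2. All 4 were higher at an unadjusted p under 0.05 between the pristane groups, as were 10.5% of all genes tested, with log2 changes from 0.91 to 1.70. Bub1 and Ttk reached 1 FPKM only in libraries labelled Irf8KO and were tested only through those values.

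At the kinetochore, the 4 subunits of the Ndc80 complex, which grips microtubule ends, did not stand at equal levels. Spc24 had 9.74 and 10.2 FPKM in the Irf8KO-labelled libraries, 0.819 and 0.913 FPKM in WT pristane and 2.31 FPKM in PBS. Spc25 had 7.82 and 6.49 FPKM in the Irf8KO-labelled libraries, 1.64 FPKM in WT pristane replicate 1 and 1.54 FPKM in PBS, with a listed 0 in WT pristane replicate 2. Nuf2 had 3.57 and 2.82 FPKM in the Irf8KO-labelled libraries, 0.10 and 0.149 FPKM in WT pristane and 1.32 FPKM in PBS. Spc24 and Nuf2 thus shared the order libraries labelled Irf8KO, then PBS, then WT pristane. Ndc80 itself had 2.36 and 2.04 FPKM in the Irf8KO-labelled libraries, 0.778 and 0.330 FPKM in WT pristane and 0.418 FPKM in PBS. The ratio of mean FPKM between the pristane groups was 25.7 for Nuf2, 11.5 for Spc24, 8.72 for Spc25 and 3.97 for Ndc80, with log2 changes of 1.89, 2.56, 2.32 and 1.06 in that order.

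Cenpa, the histone variant that marks centromeres, had 12.1 and 12.6 FPKM in the Irf8KO-labelled libraries, 4.97 and 3.70 FPKM in WT pristane and 5.06 FPKM in PBS. Its ratio of 2.85 between the pristane means was among the smaller ones. Cenpm, a protein of the inner kinetochore, had 4.06 and 5.73 FPKM in the Irf8KO-labelled libraries, 0.718 and 1.78 FPKM in WT pristane and 0.897 FPKM in PBS. Cenpe, a kinetochore motor, had 0.870 and 0.648 FPKM in the Irf8KO-labelled libraries, 0.166 and 0.0823 FPKM in WT pristane and 0.260 FPKM in PBS. Cenpf, a large kinetochore protein, had 0.342 and 0.497 FPKM in the Irf8KO-labelled libraries, 0.0384 and 0 FPKM in WT pristane and 0.181 FPKM in PBS. Cenpe and Cenpf kept the same order of groups but stayed under 1 FPKM throughout and were not tested.

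Spindle motors of the kinesin family were mostly in the range of a few FPKM. Kif22, which pushes chromosome arms from the poles, had 5.70 and 6.02 FPKM in the Irf8KO-labelled libraries, 1.68 and 1.78 FPKM in WT pristane and 0.901 FPKM in PBS, the tightest pairs among the motors. Kif11, which separates the spindle poles, had 2.12 and 2.33 FPKM in the Irf8KO-labelled libraries, 0.693 and 0.275 FPKM in WT pristane and 0.955 FPKM in PBS. Kif20a, a motor of the central spindle, had 2.75 and 2.43 FPKM in the Irf8KO-labelled libraries, 0.264 and 0.491 FPKM in WT pristane and 1.12 FPKM in PBS, and its exons overlap Cdc23 on the other strand. These 3 motors had log2 changes between 1.13 and 1.39 and groups that did not overlap.

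The remaining motors were less even. Kif2c, which takes microtubule ends apart at centromeres, had 1.13 and 1.55 FPKM in the Irf8KO-labelled libraries, 0.0843 and 0 FPKM in WT pristane and 0.156 FPKM in PBS. Kif23, the motor of the cytokinetic midzone, had 3.65 and 2.06 FPKM in the Irf8KO-labelled libraries, 1.41 and 0.199 FPKM in WT pristane and 0.882 FPKM in PBS. Kif4, a chromosome-bound motor, had 1.21 and 0.407 FPKM in the Irf8KO-labelled libraries, 0.426 and 0.211 FPKM in WT pristane and 0.0890 FPKM in PBS. Kif4 was the 1 gene of the 43 whose pristane groups overlapped, with a log2 change of 0.42 and a 95% interval from −0.34 to 1.19 (limma), and its exons overlap Pdzd11 on the other strand. For Kif23 the spread between the WT pristane libraries was 7.06-fold, and the change of 1.15 ± 0.45 (SE) had an adjusted p of 0.263 (limma).

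Proteins that build and bundle spindle microtubules followed the same order between the pristane groups. Prc1, which bundles the central spindle, had 5.83 and 7.95 FPKM in the Irf8KO-labelled libraries, 1.27 and 0.472 FPKM in WT pristane and 1.31 FPKM in PBS. Nusap1, which links chromatin to microtubules, had 6.04 and 3.29 FPKM in the Irf8KO-labelled libraries, 0.553 and 0.244 FPKM in WT pristane and 1.04 FPKM in PBS. Tpx2, the activator of Aurora A, had 3.19 and 3.39 FPKM in the Irf8KO-labelled libraries, 1.03 and 1.21 FPKM in WT pristane and 0.712 FPKM in PBS. Prc1 and Nusap1 had log2 changes of 2.10 and 1.98, and Tpx2, whose pairs were tighter, had 1.02. Ckap2, a microtubule stabiliser, had 1.48 and 1.57 FPKM in the Irf8KO-labelled libraries, 0.274 and 0.408 FPKM in WT pristane and 0.172 FPKM in PBS. Hmmr, a spindle protein that also binds hyaluronan, had 1.38 and 1.64 FPKM in the Irf8KO-labelled libraries, 0.695 and 0.602 FPKM in WT pristane and 0.979 FPKM in PBS. Exons of Prc1 and Nusap1 overlap Rccd1 and Oip5 on the other strand.

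Cytokinesis genes were less uniform. Anln, the scaffold of the contractile ring, had 1.73 and 3.86 FPKM in the Irf8KO-labelled libraries, 0.407 and 0.0606 FPKM in WT pristane and 0.306 FPKM in PBS. Ect2, the exchange factor that activates RhoA at the midzone, had 1.54 and 1.32 FPKM in the Irf8KO-labelled libraries, 0.277 and 0.329 FPKM in WT pristane and 0.533 FPKM in PBS. Racgap1, a subunit of the centralspindlin complex, had 11.9 and 8.72 FPKM in the Irf8KO-labelled libraries, 5.42 and 2.5 FPKM in WT pristane and 14.2 FPKM in PBS. Racgap1 was thus higher in the PBS library than in any pristane library, unlike its partners Ect2 and Kif23.

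Of the genes that serve or obey the anaphase promoting complex, Ube2c, the ubiquitin-conjugating enzyme of that complex, had 37.3 and 40.9 FPKM in the Irf8KO-labelled libraries, 5.93 and 3.63 FPKM in WT pristane and 8.50 FPKM in PBS. The change was 2.82 ± 0.27 (SE) on the log2 scale, with an adjusted p of 0.0562 (limma), and exons of Ube2c overlap Tnnc2 on the other strand. Cdc20, the activator of the complex, had 6.93 and 7.17 FPKM in the Irf8KO-labelled libraries, 1.72 and 0.639 FPKM in WT pristane and 1.08 FPKM in PBS, and its exons overlap Elovl1. Cdca3, a trigger of mitotic entry that the complex degrades, had 12.1 and 10.5 FPKM in the Irf8KO-labelled libraries, 0.540 and 1.34 FPKM in WT pristane and 3.38 FPKM in PBS. All 3 had pristane groups that did not overlap.

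Pttg1, the securin that restrains separase until anaphase, lay the other way. It had 39.8 and 38.7 FPKM in the Irf8KO-labelled libraries, 70.5 and 41.5 FPKM in WT pristane and 56.9 FPKM in the PBS library. The groups did not overlap, but WT pristane replicate 2 lay close to the libraries labelled Irf8KO, and the log2 change of −0.45 ± 0.30 (SE) had a 95% interval of −1.29 to 0.38 and, by limma, an adjusted p of 0.462. Pttg1 was also the most abundant of the 43 in each of the 3 WT libraries. With an estimated 482 and 200 fragments in the WT pristane libraries, it had more counts behind it there than any other mitosis gene.

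Top2a, the topoisomerase that untangles sister chromatids, had 6.16 and 5.79 FPKM in the Irf8KO-labelled libraries, 1.82 and 1.32 FPKM in WT pristane and 2.79 FPKM in PBS. Mki67, which encodes the proliferation marker Ki-67, had 1.72 and 1.26 FPKM in the Irf8KO-labelled libraries, 0.447 and 0.569 FPKM in WT pristane and 0.840 FPKM in PBS. Foxm1, the transcription factor that drives many of these genes, had 1.62 and 1.20 FPKM in the Irf8KO-labelled libraries, 0.565 and 0 FPKM in WT pristane and 0.193 FPKM in PBS. All 3 were higher at an unadjusted p under 0.05 between the pristane groups, as were 10.5% of all genes tested. Mki67 and Foxm1 reached 1 FPKM only in libraries labelled Irf8KO and were tested only through those values. Mki67 had a log2 change of 0.72 ± 0.18 (SE), a scale that understates changes at such low levels, and a ratio of mean FPKM of 2.93. Exons of Foxm1 overlap Tex52 on its own strand.

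The pair labelled Irf8KO agreed more closely over these genes than the WT pristane pair. Of the 43 genes, 40 were within 2-fold between the libraries labelled Irf8KO, with a median ratio of replicate 1 over replicate 2 of 1.06. Only 38 genes were above 0 in both WT pristane libraries, and 20 of these were within 2-fold, with a median ratio of 1.36. The libraries also differed in what lay behind a value: a mitosis gene had a median of about 63 and 38 fragments in the Irf8KO-labelled libraries, 10 and 4 in WT pristane and 7 in PBS. Genes with under 10 estimated fragments numbered 0 and 2 in the Irf8KO-labelled libraries, 21 and 30 in WT pristane and 30 in PBS, so single low values such as those of Ttk, Kif2c, Cenpf or Bub1 in WT are counts of a few fragments. These estimates use the longest transcript of each gene and cover counting only.

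Whether pristane itself changed mitosis genes in WT mice was read from WT pristane against PBS, with a single PBS library that was assumed to vary like the pristane libraries. None of the 41 tested genes rose or fell past an adjusted p of 0.05 (limma), where 5.18% of all genes rose and 5.46% fell. At an unadjusted p under 0.05, 1 gene was higher, against 15.9% of all genes, and 5 were lower, against 17.8%. The 1 higher was Plk1, at 0.74 ± 0.23 (SE) on the log2 scale, and the 5 lower were Ccnb2, Nuf2, Spc24, Cdca3 and Racgap1. Racgap1 had the lowest change, −1.68 ± 0.47, and Cdca3 and Nuf2 followed at −1.21 and −1.04, each with a PBS value above both WT pristane values. Without either library labelled Irf8KO, 1 gene was lower at that threshold in place of 5. The median log2 change of the 43 genes was −0.17, beside −0.02 over all genes, and 28 of the 43 changes were negative.

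Set against the PBS library, the libraries labelled Irf8KO differ in genotype and in pristane together, and the comparison shares libraries with both others. Here 11 of the 41 tested genes rose past the threshold and 0 fell, against 3.81% and 4.72% of all genes (limma). They were the cyclins Ccnb1 and Ccnb2 with Cdk1, the kinases Plk1 and Bub1, Birc5, Spc24, Kif22, Tpx2, Ckap2 and Ube2c. Birc5 rose by 2.76 ± 0.29 (SE) on the log2 scale with an adjusted p of 0.0318, and Ccnb1 by 2.71 ± 0.26 with the same adjusted p (limma). Bub1 is listed at 0 in PBS, so no fold is given for it. At an unadjusted p under 0.05, 32 genes were higher, against 15.6% of all genes, and 0 lower, against 18.1%. Both counts carry the limit of the 1 FPKM filter, since 15 of the 41 reached that level only in libraries labelled Irf8KO. Ccnb1, Bub1 and Ckap2, of the 11, are among those 15. Without any 1 of the 4 pristane libraries 0 genes passed the adjusted test, with 23 to 32 at an unadjusted p under 0.05. Racgap1 and Pttg1 were the only 2 of the 43 with a negative change, −0.44 and −0.53, and their intervals did not exclude 0. The median log2 change of the 43 was 1.32, beside 0.00 over all genes.

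Other genes of the cell cycle were read from lists of related function to place the 43 among them. Between the pristane groups 0 genes of any of these lists passed the adjusted threshold (limma), and the counts that follow are at an unadjusted p under 0.05, where 10.5% of all genes tested were higher and 10.1% lower. Of 79 further mitosis genes, 61 were tested and 37 of these were higher and 0 lower, with a median log2 change of 0.78 over the 79. Pbk, a mitotic kinase, had 7.53 and 6.57 FPKM in the Irf8KO-labelled libraries, 0.949 and 0.941 FPKM in WT pristane and 3.86 FPKM in PBS, and Kif18b, a microtubule-shortening kinesin, had 1.41 and 1.53 FPKM in the Irf8KO-labelled libraries, 0.207 and 0.103 FPKM in WT pristane and 0.389 FPKM in PBS. Of 8 condensin subunits, which compact chromosomes, 6 were higher at that threshold and 0 lower, with Ncaph at 3.73 and 4.09 FPKM in the Irf8KO-labelled libraries, 0.791 and 0 FPKM in WT pristane and 1.49 FPKM in PBS. Of 14 core subunits of the anaphase promoting complex, which is present throughout the cycle, 2 were higher at that threshold, Anapc11 and Cdc26, near the share of all genes. Their median change was 0.22, with 13 of 14 changes positive and 8 of 14 higher without overlap, beside 22.0% of all genes. Whether these lists differ from the 43 was not tested.

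Of 38 listed genes of DNA replication, which act before mitosis, 36 were tested. At an unadjusted p under 0.05, 21 were higher, against 10.5% of all genes, and 0 lower, against 10.1%, with a median log2 change of 0.82 and 0 past the adjusted threshold. Rrm2, the cell cycle subunit of ribonucleotide reductase, had 12.8 and 14.6 FPKM in the Irf8KO-labelled libraries, 2.81 and 2.17 FPKM in WT pristane and 2.32 FPKM in PBS, and rose against PBS by 2.14 ± 0.27 (SE) with an adjusted p of 0.0371 (limma), a call lost without any 1 pristane library. Tk1, thymidine kinase, had 12.4 and 13.9 FPKM in the Irf8KO-labelled libraries, 2.81 and 2.46 FPKM in WT pristane and 5.44 FPKM in PBS. Of 22 MuvB, B-Myb and E2F regulators 19 were tested, and 2 were higher at an unadjusted p under 0.05, Lin52 and E2f8, and 1 lower, Rb1, no more than the share of all genes. Rb1, the retinoblastoma repressor of E2F, had 2.21 and 2.2 FPKM in the Irf8KO-labelled libraries, 4.88 and 4.16 FPKM in WT pristane and 9.08 FPKM in PBS, and fell against PBS by 1.65 on the log2 scale (limma, adjusted p = 0.0430), a call that was also lost without any 1 pristane library. Mybl2, which encodes B-Myb, stayed under 1 FPKM in all libraries. Of 9 G1 cyclins and kinases tested 5 were higher at that threshold, and of 12 inhibitors of the cycle tested 1 was higher, Cdkn2c, which is not above the share of all genes.

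**Figure D4:**
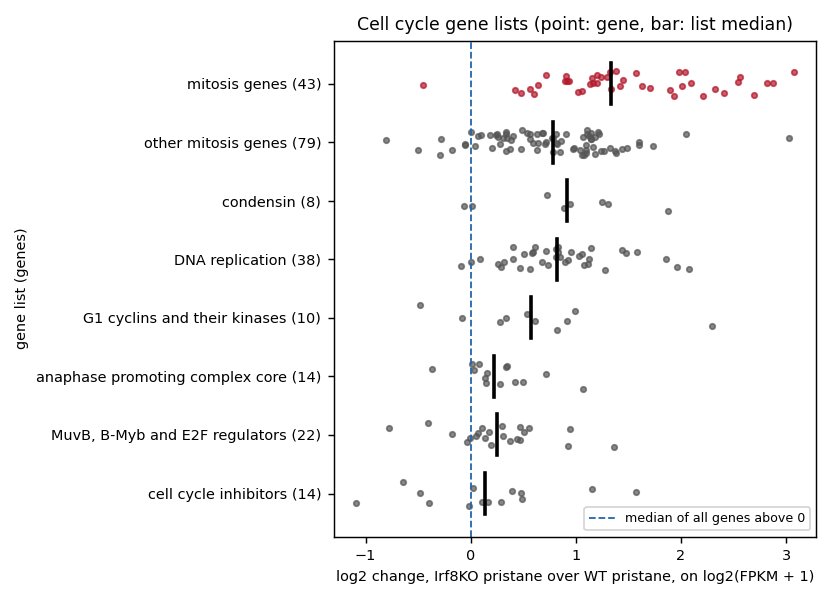
Log2 change on log2(FPKM + 1), libraries labelled Irf8KO over WT pristane, of every gene (points) in 8 cell cycle lists, with the median of each list as a bar and the number of genes in brackets. The dashed line is the median over all genes above 0. The 43 mitosis genes have a median of 1.34, the replication list 0.82 and the core of the anaphase promoting complex 0.22.

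Markers of several cell types moved with the mitosis genes. The 12 markers of large peritoneal macrophages summed to 3911 and 5539 FPKM in the Irf8KO-labelled libraries, 1704 and 1148 FPKM in WT pristane and 3193 FPKM in PBS, and 11 of the 12 lay higher in both libraries labelled Irf8KO than in both WT pristane libraries, beside 22.0% of all genes. Without Fn1, the most abundant of them, the sums were 1576 and 2680 FPKM in the Irf8KO-labelled libraries, 142 and 222 FPKM in WT pristane and 2325 FPKM in PBS. Gata6, the factor that defines these macrophages, had 7.70 and 15.7 FPKM in the Irf8KO-labelled libraries, 1.96 and 1.40 FPKM in WT pristane and 6.13 FPKM in PBS. Timd4, another defining gene, was the exception, at 0.0957 and 0.552 FPKM in the Irf8KO-labelled libraries, 0.676 and 0.838 FPKM in WT pristane and 26.9 FPKM in PBS. These sums were high in PBS, where the mitosis genes without Pttg1 summed to 71.1 FPKM, against 284 and 263 FPKM in the Irf8KO-labelled libraries and 53.0 and 38.6 FPKM in WT pristane.

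Neutrophil precursor markers, 11 in the table, summed to 4083 and 2161 FPKM in the Irf8KO-labelled libraries, 593 and 1139 FPKM in WT pristane and 72.7 FPKM in PBS, and between the pristane groups 7 of the 11 were higher without overlap, beside 22.0% of all genes, and 1, Cebpe, lower, beside 22.7%. Without Lcn2, which carried most of each pristane sum, the sums were 1378 and 747 FPKM in the Irf8KO-labelled libraries, 40.7 and 248 FPKM in WT pristane and 63.7 FPKM in PBS. Granule genes differed among themselves: Camp and Ltf of secondary granules had 287 and 116 FPKM and 235 and 146 FPKM in the Irf8KO-labelled libraries, against 6.33 and 10.6 FPKM and 4.82 and 42.6 FPKM in WT pristane, while Elane of primary granules had 18.1 and 2.57 FPKM in the Irf8KO-labelled libraries, against 0.711 and 8.46 FPKM in WT pristane. All 3 of these granule genes were listed at 0 in PBS. Prtn3, another gene of primary granules, was not, and its 62.0 FPKM made up most of the PBS sum. All 11 markers, Prtn3 among them, were higher in both Irf8KO-labelled libraries than in PBS, as were 5099 of 15245 genes. Elane alone therefore does not stand for the primary granule genes. Mature neutrophil markers, 10 genes led by S100a8, summed to 46227 and 23781 FPKM in the Irf8KO-labelled libraries, 16841 and 15006 FPKM in WT pristane and 163 FPKM in PBS. Between the pristane groups 5 of the 10 were higher without overlap, beside 22.0% of all genes. The 2 that were lower without overlap, Il1r2 and Stfa2l1, stand beside 22.7%. Without S100a8 the mature neutrophil list summed to 16786 and 7481 FPKM in the Irf8KO-labelled libraries, 6465 and 5128 FPKM in WT pristane and 70.5 FPKM in PBS. The B cell list summed to 242 and 114 FPKM in the Irf8KO-labelled libraries, 54.1 and 12.4 FPKM in WT pristane and 3004 FPKM in PBS, an order that the mitosis genes did not share. Inflammatory monocyte markers were lower, at 452 and 250 FPKM in the Irf8KO-labelled libraries, against 1294 and 6337 FPKM in WT pristane and 874 FPKM in PBS, and 8 of 10 were lower without overlap, beside 22.7% of all genes. Without Chil3 they summed to 332 and 181 FPKM in the Irf8KO-labelled libraries, 1205 and 2337 FPKM in WT pristane and 869 FPKM in PBS. All 8 T cell and all 8 natural killer cell markers lay lower in both Irf8KO-labelled libraries than in both WT pristane libraries, beside 22.7% of all genes. The part of any of these cell types in the levels of mitosis genes was not tested.

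**Figure D5:**
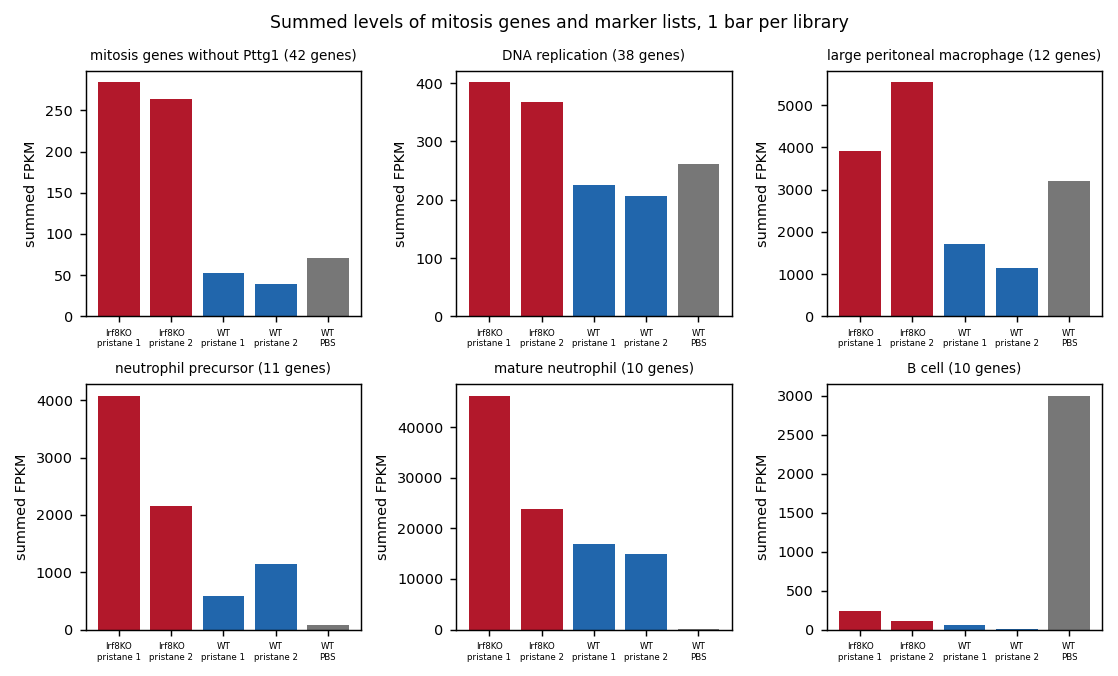
Summed FPKM per library of the mitosis genes without Pttg1, of the DNA replication list and of 4 cell type marker lists, with 1 bar per library. Mitosis genes sum to 284 and 263 FPKM in the Irf8KO-labelled libraries, against 53.0 and 38.6 FPKM in WT pristane and 71.1 FPKM in PBS, and the B cell list alone is highest in PBS.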

How the data were processed

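Smart-seq2 libraries of peritoneal lavage cells (5 in all) were grouped by the labels. The deposited table, named a count table, held FPKM values made by the authors, since they were not whole numbers. BWA, TopHat2 2.0.10, Cufflinks 2.2.1 and Cuffnorm are named in the submitters' processing notes, with no roles. No source used here gives the genome build, the annotation or any scaling between libraries. Of 22815 symbols, 27 had been turned into dates and were not used.

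The 11117 genes that reached 1 FPKM in any library entered a limma 3.58.1 fit (R 4.3.3, trend) on log2(FPKM + 1) with 3 group means, a pseudocount of 1, 2-sided p-values and Benjamini-Hochberg adjustment over all genes tested. Residual degrees of freedom were 2 and prior degrees of freedom 1.99. The script was tested on simulated data. The design had named this test for values that are not counts. Members and gene lists were chosen with earlier results of these data known. Any of the 43 mitosis genes could be named; of other pathway lists, the 2 genes with the smallest p in each of the first 2 comparisons, and regulators; of cell type lists, the highest and up to 3 defining genes. Each SE is limma's for a log2 change between 2 groups, not for a group mean.

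Fragments were estimated from the steps of the lowest values on genes with a single transcript. Of the values near the lowest multiples of that step, 63.0% to 80.5% lay within 0.15 of a whole number. The step was itself set from the most frequent value, so this share is no independent check. A single fragment over 1 kb of transcript equals 0.197 to 0.436 FPKM. Exon overlaps were read from the GENCODE annotation supplied, in which 9 of the 43 genes overlap another gene, and promoters from RefSeq (GRCm38.p6). Alternatives were a pseudocount of 0.1, other filters, upper quartile scaling, quantile normalization, each pristane library left out, the 4 pristane libraries alone, and a replicate block.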

Additional observations from a re-analysis of the deposited data

How the results depend on the processing

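Between the libraries labelled Irf8KO and WT pristane, the number of mitosis genes past the adjusted threshold as higher (limma) was 0 with all 5 libraries. It was also 0 with a pseudocount of 0.1, with no filter and under both scalings, and did not rise when any 1 pristane library was left out. It was 7 of 10 tested with a mean of at least 5 FPKM, 18 of 41 with the 4 pristane libraries alone and 22 of 41 with those libraries and a replicate block, where 3.68% of all genes were called. The labels do not say whether the replicate numbers pair the samples. Over 11117 genes, the differences between replicates 1 and 2 of the pairs correlated at 0.0448. With 1 difference per pair, this value cannot show or exclude a pairing. Without any 1 pristane library, the median log2 change of the 43 genes lay between 1.28 and 1.51. A pseudocount of 0.1 moved the median log2 change of the 43 genes to 2.32, and for WT pristane against PBS to −0.55. In that comparison upper quartile scaling gave 1 gene lower in place of 0 and moved the median of all genes tested to −0.33, and to −0.30 for the Irf8KO-labelled libraries against PBS. Against PBS, the 11 genes that rose in libraries labelled Irf8KO became 6 with a pseudocount of 0.1 and 5 with a mean of at least 5 FPKM. Those calls were lost without any 1 pristane library, and the median log2 change became 2.14 with a pseudocount of 0.1. No result changed direction past the threshold. With few fragments per gene in WT, folds of genes under 1 FPKM there are imprecise.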

Other observations

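G1 regulators, which act before the genes described above, did not follow a single order. Ccnd1, a D-type cyclin that many adherent cells use to enter the cycle, had 26.5 and 29.0 FPKM in the Irf8KO-labelled libraries, 7.72 and 2.94 FPKM in WT pristane and 7.99 FPKM in PBS. Cdk6, a kinase partner of D-type cyclins, had 26.6 and 38.8 FPKM in the Irf8KO-labelled libraries, 36.8 and 31.3 FPKM in WT pristane and 4.74 FPKM in PBS. It rose against PBS in both pristane groups, by 2.53 in the Irf8KO-labelled libraries and by 2.61 in WT (limma, adjusted p = 0.0359 and 0.0304), and the pristane groups overlapped. Cdkn2c, an inhibitor of Cdk4 and Cdk6, had 4.12 and 5.88 FPKM in the Irf8KO-labelled libraries, 0.808 and 1.20 FPKM in WT pristane and 6.57 FPKM in PBS, the order of Racgap1. Btg2, an antiproliferative gene, had 60.3 and 63.2 FPKM in the Irf8KO-labelled libraries, 56.7 and 53.6 FPKM in WT pristane and 133 FPKM in PBS, and fell against PBS in both pristane groups (limma, adjusted p = 0.0458 in the Irf8KO-labelled libraries and 0.0350 in WT). Against PBS, 0 genes of any kind passed the adjusted threshold when 1 of the 4 pristane libraries was removed, whichever it was, so the calls of Cdk6 and Btg2 are lost there.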
